A study of Mus musculus with 2 samples.

Results

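The genes of glycolysis and other targets of the hypoxia-inducible factor (HIF) form a set of 34, chosen by symbol from the 31053 genes counted in both libraries. Of these, 20 are glycolytic (glucose and lactate transporters, enzymes and their regulators) and 14 are other HIF targets. They were read in subcutaneous tumours grown from MC38, a mouse colon carcinoma line, taken apart into single cells whose RNA was counted in droplets (10x 3′ chemistry). The labels give 2 groups, a control group and a group overexpressing UBD, with 1 library each, and name no further allele, agent, mouse strain, age or number of animals. UBD (FAT10) is a small modifier, related to ubiquitin, that marks other proteins for the proteasome. The labels do not say which cells carry the added UBD or from which promoter it is made.

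HIF is a pair of proteins. Its oxygen-sensitive partner is hydroxylated by prolyl hydroxylases such as Egln1 and Egln3 while oxygen is present, and is then handed by the VHL protein to the proteasome. When oxygen is short the hydroxylation slows and HIF switches on genes for glucose uptake, nearly every step from glucose to lactate, acid export, vessel growth and mitochondrial turnover. Several of these genes, Egln3 among them, feed back on the pathway, and many tumours also run glycolysis with oxygen present.

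HIF binds DNA at a short core motif, ACGTG or GCGTG. RefSeq promoter windows (build GRCm38.p6, 250 bases before to 50 after an annotated start) were found for 32 of the 34 members. The windows below belong to 6 members that stood at the ends of the UBD to control comparison in tumour cells, 4 that were lower and 2 that were higher in the UBD library. The higher pair, Ddit4 and P4ha1, lay within 1.5-fold. The windows are shown so that the response of each can be read beside its start site. Capitals mark ACGTG or its reverse complement CACGT, and where these overlap in a window each is counted.
Car9: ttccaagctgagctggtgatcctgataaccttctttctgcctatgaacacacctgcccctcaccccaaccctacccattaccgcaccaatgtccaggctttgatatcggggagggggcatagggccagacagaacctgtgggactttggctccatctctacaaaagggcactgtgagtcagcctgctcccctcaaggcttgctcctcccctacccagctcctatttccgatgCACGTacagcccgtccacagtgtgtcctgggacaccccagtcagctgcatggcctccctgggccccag
Adm: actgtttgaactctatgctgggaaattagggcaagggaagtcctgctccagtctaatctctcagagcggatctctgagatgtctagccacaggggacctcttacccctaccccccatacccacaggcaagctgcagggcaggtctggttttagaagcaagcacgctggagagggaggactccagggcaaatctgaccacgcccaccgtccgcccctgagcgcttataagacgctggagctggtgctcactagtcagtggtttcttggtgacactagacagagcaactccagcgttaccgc
Slc16a3: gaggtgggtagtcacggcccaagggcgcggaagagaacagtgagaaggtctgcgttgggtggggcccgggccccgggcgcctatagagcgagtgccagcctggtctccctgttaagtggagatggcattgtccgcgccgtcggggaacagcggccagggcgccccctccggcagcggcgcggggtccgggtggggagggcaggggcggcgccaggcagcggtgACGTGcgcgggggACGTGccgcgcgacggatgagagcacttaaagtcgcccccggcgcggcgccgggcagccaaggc
Hk2: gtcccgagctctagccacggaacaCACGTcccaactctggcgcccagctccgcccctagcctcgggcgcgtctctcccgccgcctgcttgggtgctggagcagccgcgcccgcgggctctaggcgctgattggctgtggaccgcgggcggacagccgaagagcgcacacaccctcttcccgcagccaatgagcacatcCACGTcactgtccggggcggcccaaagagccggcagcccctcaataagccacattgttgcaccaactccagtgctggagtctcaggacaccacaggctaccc
Ddit4: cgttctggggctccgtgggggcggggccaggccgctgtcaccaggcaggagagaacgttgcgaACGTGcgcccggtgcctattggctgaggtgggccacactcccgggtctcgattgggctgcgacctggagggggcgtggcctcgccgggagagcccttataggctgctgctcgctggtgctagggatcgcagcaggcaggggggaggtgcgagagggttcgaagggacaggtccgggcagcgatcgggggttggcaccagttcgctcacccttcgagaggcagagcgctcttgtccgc
P4ha1: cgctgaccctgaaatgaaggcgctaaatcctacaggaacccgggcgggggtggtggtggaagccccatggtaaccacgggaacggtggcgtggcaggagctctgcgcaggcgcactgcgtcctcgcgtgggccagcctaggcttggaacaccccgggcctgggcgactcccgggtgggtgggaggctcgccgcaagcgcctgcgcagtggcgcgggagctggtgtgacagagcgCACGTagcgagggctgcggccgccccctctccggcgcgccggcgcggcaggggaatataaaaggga
The Car9 window lies at chr4:43506776-43507075 (plus strand) and holds 1 such match, close to the start. The Adm window, chr7:110627407-110627706 (plus strand), holds 0 matches. The Slc16a3 window, chr11:120948817-120949116 (plus strand), and the Hk2 window, chr6:82774405-82774704 (minus strand), hold 2 each. The windows of Ddit4, chr10:59951721-59952020 (minus strand), and P4ha1, chr10:59323046-59323345 (plus strand), hold 1 each. The letters are thus present in 3 of the 4 lower and both higher members shown. The windows of Pfkfb3, which are not shown, hold 1 and 2. Over all 32851 windows 19.6% held ACGTG on either strand, against 13 of 28 windows of glycolytic members (46.4%) and 12 of 18 windows of other HIF targets (66.7%). The second core, GCGTG, was in 32.4% of all windows, in 14 of the 28 and in 10 of the 18. A match is only a run of letters, and absence of one says nothing of sites outside the window.

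Cells were placed in classes by UMIs (unique molecular identifiers, counted molecules) of marker genes. Tumour cells had at least 5 of Cdkn2a, macrophages at least 3 of C1qa, T cells at least 1 of Cd3e, osteoclast-like cells at least 5 of both Acp5 and Ctsk, and neutrophils at least 10 of S100a8. The control library gave 4682 tumour cells, 2261 macrophages, 381 T cells, 86 osteoclast-like cells and 141 neutrophils, and the UBD library 7717, 1784, 398, 678 and 18. Cells meeting no rule made up 43.3% of control and 17.2% of UBD cells and were left out, as were those meeting several. Leukocyte RNA was low in the tumour gate: Ptprc, the pan-leukocyte gene, stood at 6.50 and 1.39 CPM (counts per 1000000 of the class's summed UMIs) in control and UBD tumour cells, against 316 CPM in control macrophages. Fibroblast markers (Pdgfra, Dcn, Lum and Col1a1) summed to 1019 and 889 CPM in tumour cells, above the epithelial Krt8, Krt18 and Epcam at 22.2 and 116 CPM. In T cells the fibroblast markers summed to 106 CPM in control and 712 CPM in UBD cells. Median depth was 22882.5 and 17369 UMIs in tumour cells but 4054 and 5745 in macrophages. The libraries shared 71 barcodes. Mouse Ubd itself was counted at 0.362 CPM in control and 1.18 CPM in UBD tumour cells, with a UMI in 0.619% and 1.17% of them. A 3′ count sees an added copy only if it carries the gene's own 3′ end, so this checks the labels weakly. With 1 library per group there is no replicate check and no test. Intervals are 95% and cover counting error only, and a difference between libraries cannot be told apart from one between tumours or preparations.

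In tumour cells, the glucose importer Slc2a1 (GLUT1), the first-step enzyme Hk2, the regulator Pfkfb3, the enolase Eno1 and the lactate exporter Slc16a3 (MCT4) were lower in the UBD library by at least 1.5-fold, and no glycolytic member was higher by as much. Among the other HIF targets Car9, Adm, Ero1l and Ndrg1 were lower and none was higher. The rest of both lists, 25 of 34 members, lay within 1.5-fold. Across all 15254 genes measured in tumour cells (at least 20 UMIs), 20.6% were at least 1.5-fold lower and 8.96% at least 1.5-fold higher. The 5 of 20 glycolytic members and 4 of 14 other HIF targets that were lower therefore stand near or a little above that background. How many of all genes had larger ratios was not counted, so the ratios of single members below are given without such a share.

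Taking glycolysis in order, Slc2a1 stood at 122.7 CPM (120.7 to 124.6) in control and 68.9 CPM (67.6 to 70.2) in UBD tumour cells, 1.78-fold lower. Its relative Slc2a3 (GLUT3), a high-affinity glucose importer, was at 22.0 and 23.3 CPM. Of the UMIs of the pair, Slc2a3 therefore made up 15.2% in control and 25.3% in UBD tumour cells. Both kinases that trap glucose as its phosphate showed the same split: Hk2 was at 126.0 (124.0 to 128.0) and 63.0 CPM (61.7 to 64.2), 2.0-fold lower, whereas Hk1 was at 36.8 and 35.1 CPM. The share of Hk2 among the 2 hexokinases was 77.4% and 64.2%.

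The next steps were mixed. Gpi1, which turns glucose phosphate into fructose phosphate, was at 289 and 271 CPM, and the phosphofructokinase subunit Pfkl at 43.7 CPM in each library. Its partner Pfkp was at 60.1 and 42.2 CPM, 1.42-fold lower. The enzymes Pfkfb3 and Pfkfb4, which set the level of the activator fructose 2,6-bisphosphate, differed from each other: Pfkfb3 stood at 13.3 (12.7 to 13.98) and 5.92 CPM (5.54 to 6.32), 2.25-fold lower and the lowest ratio of the glycolytic members, and Pfkfb4 at 5.65 and 5.34 CPM.

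In the later steps, from aldolase to pyruvate kinase, Eno1 had the lowest ratio, with 709 CPM (705 to 714) in control and 459 CPM (456 to 463) in UBD tumour cells, 1.55-fold lower. Eno1b, a near-identical copy of Eno1, was counted at 1.38 and 0.979 CPM, so few Eno1 reads were assigned there. Gapdh was at 4621 and 3141 CPM, 1.47-fold lower and just inside the threshold, and Eno1 just outside it. Tpi1, which interconverts the triose phosphates, was 1.31-fold lower and Aldoa 1.18-fold lower. Pgk1, which makes the first ATP of the pathway, was at 1336 and 1243 CPM, Pgam1 at 812 and 804, and the pyruvate kinase Pkm at 1150 and 1156 CPM. The neuronal enolase Eno2 was scarce, at 4.64 and 4.20 CPM. Neighbouring enzymes of one pathway thus ranged from a ratio of 1.01 for Pkm to 0.65 for Eno1.

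At the exit of the pathway, Ldha, which makes lactate from pyruvate, was at 1189 and 1047 CPM, and Pdk1, which inhibits pyruvate dehydrogenase, at 45.8 and 36.2 CPM. The lactate exporter Slc16a3 fell outside this narrow range, with 69.1 CPM (67.6 to 70.5) in control and 34.02 CPM (33.1 to 35.0) in UBD tumour cells, 2.03-fold lower. The members past 1.5-fold thus lay at entry (Slc2a1 and Hk2), at a regulator (Pfkfb3), at a late step (Eno1) and at exit (Slc16a3). The median log2 ratio of the 20 members was -0.21 (range -1.17 to 0.09), beside -0.04 over all genes measured. Their summed level was 12280 CPM in control and 9792 CPM in UBD tumour cells.

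Of the other HIF targets, Car9, the membrane carbonic anhydrase that handles acid outside hypoxic cells, differed most. It was at 21.7 CPM (20.8 to 22.5) in control and 3.62 CPM (3.32 to 3.93) in UBD tumour cells, 5.98-fold lower (5.46 to 6.57), and 15.7% and 3.59% of tumour cells had a UMI. In macrophages, which are not known for Car9, 3.72% and 4.43% of cells had a UMI at lower depth, so the UBD tumour share does not stand above that level. The vessel-active peptide Adm was at 43.9 CPM (42.7 to 45.0) and 16.2 CPM (15.6 to 16.8), 2.71-fold lower. Vegfa, the main vessel growth factor, was at 141 and 114 CPM.

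The oxidase Ero1l, which makes disulphide bonds in the endoplasmic reticulum, was at 364 and 187 CPM, 1.94-fold lower, and the stress-linked Ndrg1 at 159 and 83.4 CPM, 1.91-fold lower. The collagen prolyl hydroxylases parted: P4ha1 was at 122 CPM (120 to 124) and 147 CPM (145 to 149), a ratio of 1.21, and P4ha2 at 83.7 and 64.2 CPM. The oxygen sensors parted in the same way, with Egln1 at 156 and 119 CPM and Egln3 at 76.6 and 82.1 CPM. Egln3 made up 32.9% of the pair in control and 40.9% in UBD tumour cells.

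Ddit4, an inhibitor of mTORC1, had the highest ratio of all members, 1.30, with 18.9 CPM (18.2 to 19.7) and 24.5 CPM (23.7 to 25.3). Mxi1, an antagonist of MYC, was at 78.7 and 85.5 CPM, a ratio of 1.09. The mitophagy receptor Bnip3 was at 118 and 94.2 CPM, the histone demethylase Kdm3a at 24.3 and 18.7, and Ankrd37 at 40.2 and 35.3. HIF targets thus did not differ as 1 block: the median log2 ratio of the 14 was -0.35, and its members ran from -2.58 for Car9 to 0.37 for Ddit4. Their summed level was 1448 and 1075 CPM.

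**Figure D1:**
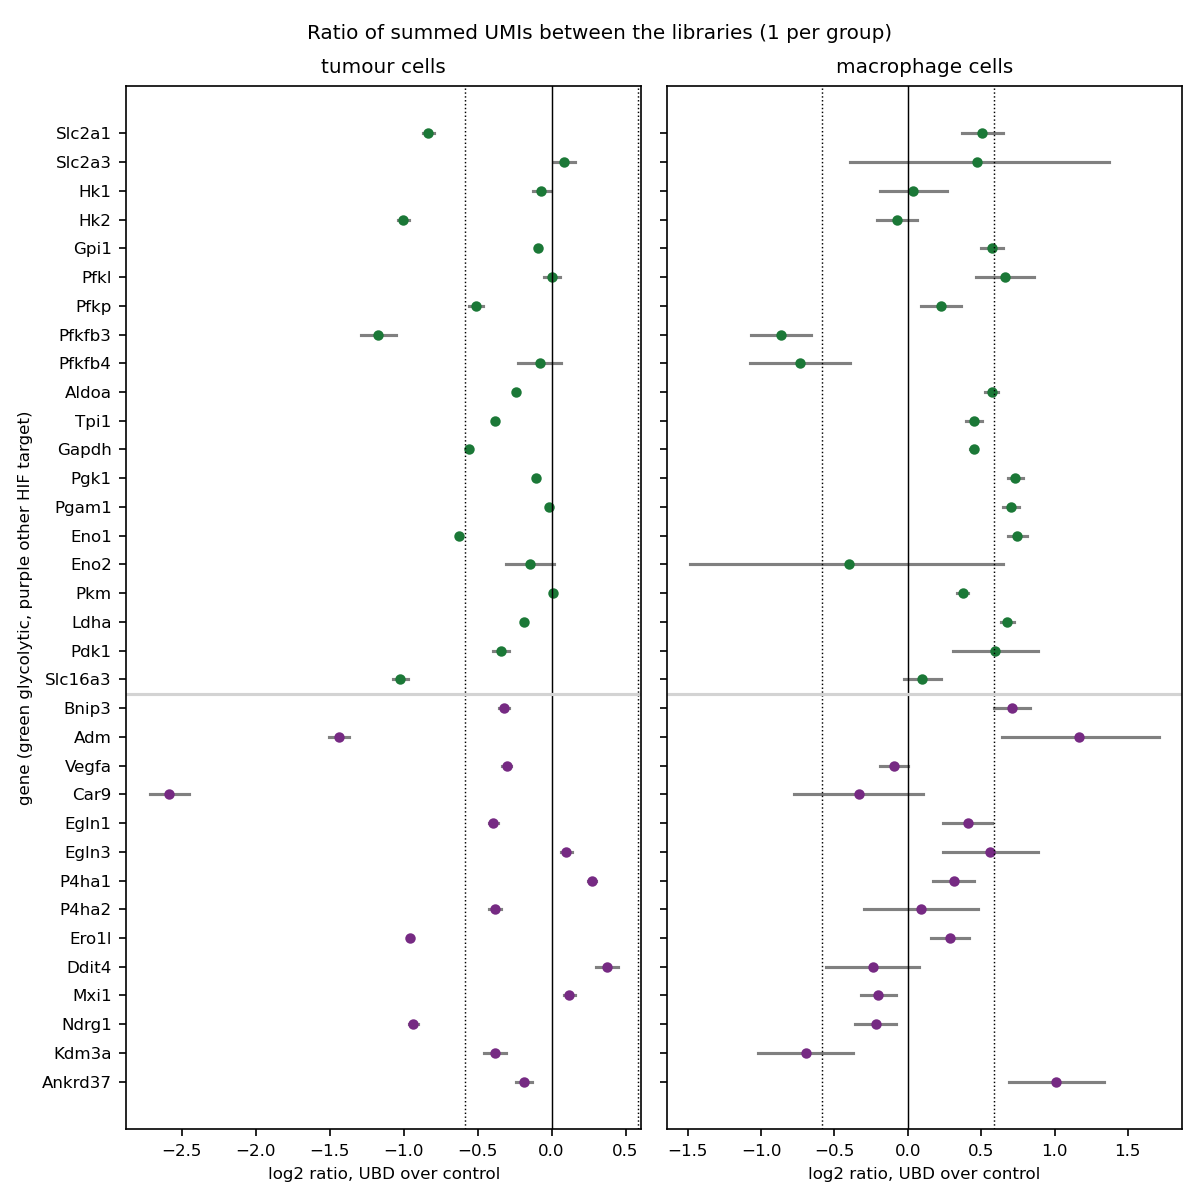
Log2 ratio of the level in the UBD over the control library for each member (points) with 95% counting intervals (bars), in tumour cells (left) and macrophages (right). Green points are glycolytic members, purple points other HIF targets, and dotted lines mark 1.5-fold. In tumour cells most points lie left of 0, with Car9 farthest at -2.58, and in macrophages 16 of the 20 glycolytic points lie right of it.

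Values that moved with these ratios were the following. The control library held more tumour cells that carried transcripts of other cells or of high mitochondrial content: cluster 5, led by the immune genes Cd74, Cd52, Srgn and Tyrobp, held 15.4% of control and 1.67% of UBD tumour cells, and cluster 6, with a median of 9.42% mitochondrial UMIs, held 15.8% and 0.194%. Without both clusters, a setting chosen after seeing the data, 6 glycolytic members (Gapdh joining) and the same 4 other HIF targets were at least 1.5-fold lower. The share of all genes was not counted in this setting. Monocyte markers summed to 141 and 23.5 CPM in tumour cells, all 3 of them above 0 in each library. Dissociation-stress genes were at least 1.5-fold lower in UBD tumour cells for 5 of 9 (Fosb, Junb, Atf3, Hspa1a and Hspa1b). Gm42418, whose annotated span overlaps rRNA sequence, stood at 2576 and 999 CPM in tumour cells, and the epithelial markers Krt8, Krt18 and Epcam summed to 22.2 and 116 CPM, all 3 above 0 in each library. The part of these genes in the result was not tested.

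Most clusters of tumour cells, made without any member gene or pathway gene, lay almost wholly in 1 library. The more mixed were cluster 4 (598 control and 335 UBD cells), cluster 5 (721 and 129) and the small cluster 8 (50 and 37). Only clusters 1, 4 and 5 held at least 80 cells of both libraries. Car9 was 1.91-fold lower in the UBD library within cluster 1, 2.60-fold lower within cluster 4 and 1.36-fold lower within cluster 5. Adm was lower by 1.95-fold, 2.25-fold and 4.11-fold. Egln3 was higher in the UBD library in each, with ratios of 1.37, 1.21 and 1.53. For these 3 genes the direction within clusters was that of the whole class, with a smaller fold difference for Car9. In cluster 5 Car9 rested on 61 control and 11 UBD UMIs, and the interval of its ratio (0.35 to 1.41) held 1.

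Slc16a3, Hk2 and Slc2a1 were below 1 in each of these clusters as well, by differing amounts. Slc16a3 had ratios of 0.94, 0.51 and 0.71 in clusters 1, 4 and 5, Hk2 of 0.86, 0.56 and 0.38, Slc2a1 of 0.78, 0.79 and 0.66, and Ndrg1 of 1.04, 0.76 and 0.66. In cluster 1 the interval of Slc16a3 (0.83 to 1.06) and that of Ndrg1 (0.93 to 1.15) held 1. Within cluster 1, which had 2272 control but 183 UBD cells, the median log2 ratio was -0.03 for the glycolytic members and 0.07 for the other HIF targets. There only Adm and Car9 of the 34 members were past 1.5-fold. The share of all genes past 1.5-fold within this cluster was not counted, so whether that is few cannot be said. Ddit4 and P4ha1, higher in the UBD library over the whole class, did not keep that direction in each of clusters 1, 4 and 5. Ddit4 had ratios of 1.19 (0.92 to 1.52), 1.05 (0.90 to 1.22) and 0.47 (0.28 to 0.74). P4ha1 had ratios of 1.19 (1.09 to 1.30), 0.91 (0.85 to 0.97) and 1.20 (0.98 to 1.46).

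**Figure D2:**
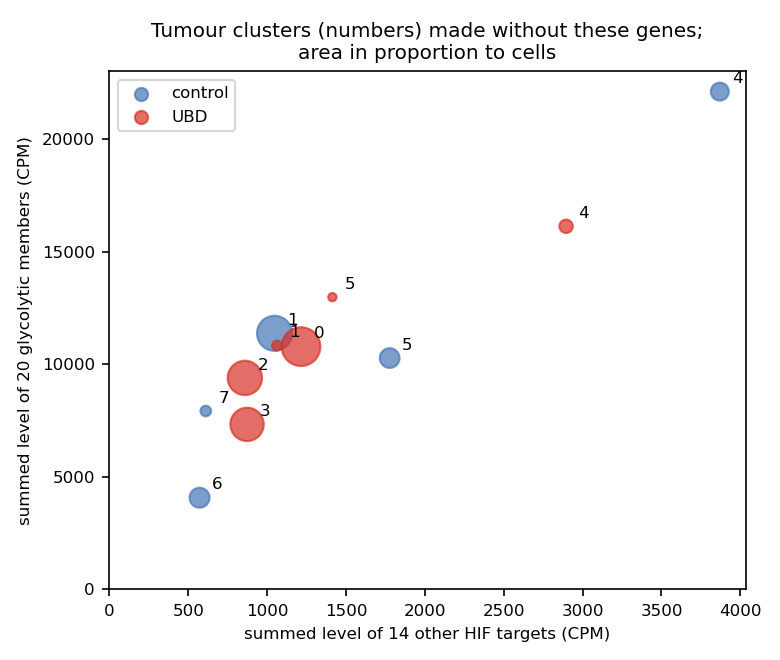
Summed level of the 14 other HIF targets (x axis, CPM) against that of the 20 glycolytic members (y axis, CPM) in each tumour cluster with at least 80 cells in a library; colours give the library, numbers the cluster, and area the number of cells. Cluster 4 lies at the upper right in both libraries, at 3870 and 22107 CPM (control) and 2895 and 16121 CPM (UBD), and control cluster 6 at the lower left.

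One cluster held high levels of both lists. Cluster 4, led by the cornified-envelope genes Sprr2e and Sprr2k with Serpinb2 and Il33, held 598 control tumour cells (12.8%) and 335 UBD tumour cells (4.34%). Its summed other HIF targets stood at 3870 and 2895 CPM, and its Ero1l at 1234 CPM in control and 734 CPM in UBD cells, against 219 and 186 CPM in cluster 1. Cluster 6 was the reverse, with a glycolytic sum of 4059 CPM and Gapdh at 1554 CPM, but with Hk2 at 282 CPM, Pfkfb3 at 38.4 CPM and Pfkfb4 at 21.0 CPM. Those 3 genes did not follow the glycolytic sum from cluster to cluster: control cluster 7, with the next lowest sum among clusters of at least 80 control cells (7913 CPM), had Hk2 at 66.6 CPM, Pfkfb3 at 6.30 CPM and Pfkfb4 at 3.15 CPM, and control cluster 4 had Hk2 at 177 CPM.

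Single cells of the same library spread over a wide range, part of it through counting alone. To compare cells at 1 depth, tumour cells with at least 5000 UMIs (88.1% of control and 98.0% of UBD tumour cells) were thinned to 5000 UMIs. The median cell then held 40 glycolytic UMIs in control tissue and 41 in UBD tissue. At the 10th percentile cells held 16 and 20, and at the 90th 112 and 80. For the other HIF targets the median was 3 in each library and the 90th percentile 18 and 12, and 9.31% and 8.53% of cells held none. The medians were close, while the control library was wider for the glycolytic sum: 90.5% of control and 95.5% of UBD cells held at least 16 glycolytic UMIs, and the upper end was higher in control cells for both lists. Cells with at least 18 UMIs of the other HIF targets were 10.2% of control (9.30 to 11.2) and 4.77% of UBD tumour cells (4.30 to 5.28). Of the highest cells in each library (at least 18 such UMIs in control, at least 12 in UBD), cluster 4 held 65.8% in the control but 19.5% in the UBD library, where cluster 0, led by Krt18 and Krt8, held 44.4%. These shares go with cluster size. Cluster 4 made up 14.5% of the thinned control cells and 4.43% of the UBD cells. Of its own cells, 46.4% and 46.9% were among the highest. Cluster 0 made up 36.0% of the UBD cells, and 13.1% of it was among the highest.

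**Figure D3:**
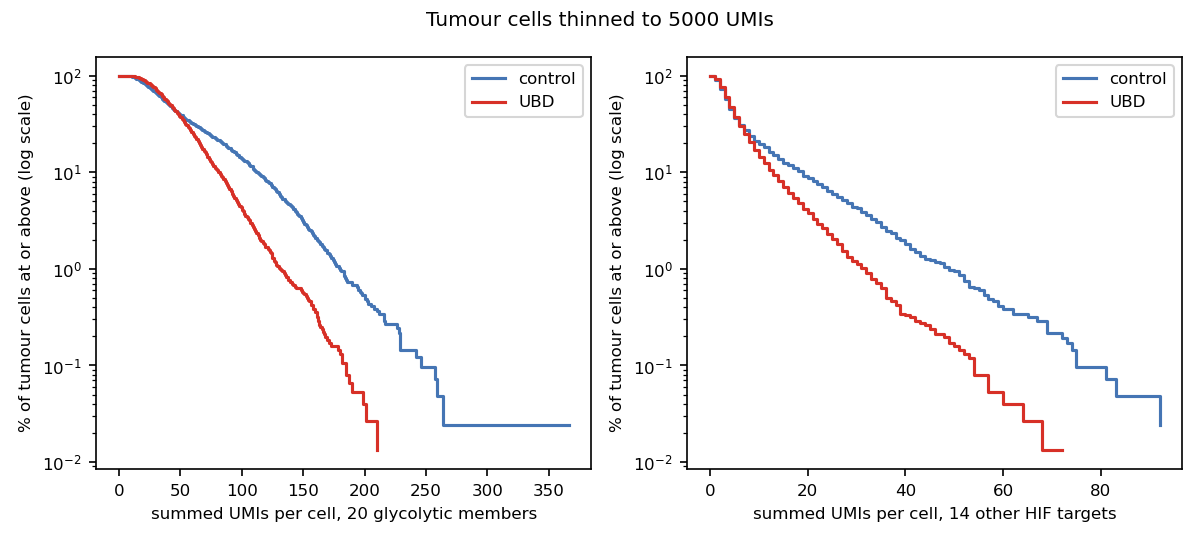
Percent of tumour cells (log scale) holding at least a given number of summed UMIs of the 20 glycolytic members (left) and the 14 other HIF targets (right), each cell thinned to 5000 UMIs. The UBD curve lies above the control curve up to 45 UMIs on the left and up to 5 on the right, and the control curve lies above it from there on.

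Members differed in how unevenly cells shared their UMIs. The highest 10% of control cells (412) held 70.0% of all Ero1l UMIs, 60.9% of Bnip3, 31.4% of Gapdh and 24.7% of Pkm, and the highest 10% of UBD cells (756) held 64.1%, 58.9%, 25.1% and 22.8%. Rare genes are uneven by counting alone, so the variance over the mean was set against 100 genes of like mean. It was at least 1.5 times theirs in both libraries for 4 of 20 glycolytic members (Slc2a1, Tpi1, Gapdh and Pgk1) and for 7 of 13 other HIF targets (Bnip3, Adm, Vegfa, Egln3, Ero1l, Ndrg1 and Ankrd37), where 3.07% of all 9176 genes tested were (4.87% in control cells and 3.98% in UBD cells taken alone). Car9 was too scarce in UBD cells for this measure. The ratio to genes of like mean was 7.53 and 4.13 for Ero1l, 4.82 and 2.79 for Gapdh, 3.65 and 2.70 for Adm, but 0.986 and 1.12 for Pkm. The total of 11 members depended on depth, being 6 when cells were thinned to 3000 UMIs and 22 at 10000 UMIs.

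The lists were high in the same tumour cells. When cells were ordered by the 14 other HIF targets, the control cells with at least 18 such UMIs (421 cells) were compared with the 2260 cells at or under the median, and the UBD cells with at least 12 (807) with 3975. This is a range of a score, not a cell type, and 40 and 94 cells lay at the cut, with 33 and 132 just below. Of the 20 glycolytic members 18 were at least 1.5-fold higher in the high cells in both libraries, where 12.7% and 8.73% of all genes were, and 28.2% and 17% of all genes were at least 1.5-fold lower. The median ratio was 3.87 (control) and 2.61 (UBD), beside 0.884 and 0.921 over all genes.

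Glucose importers led. Slc2a3 was 10.8-fold higher (8.35 to 14.04) in the high control cells and 8.06-fold (6.81 to 9.55) in the high UBD cells, and Slc2a1 8.80-fold and 7.99-fold. Pfkp had ratios of 6.99 and 3.75, Pgk1 of 5.74 and 3.57, and Pdk1 of 4.13 and 3.43. Slc16a3 had ratios of 3.98 and 4.25, Gapdh 3.98 and 2.49, and Pkm 2.15 and 1.72. Every step of the pathway from import to lactate export thus had a member that was higher in the high cells of both libraries.

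The exceptions were the 2 regulators of fructose 2,6-bisphosphate. Pfkfb3 had ratios of 0.38 (0.22 to 0.62) and 0.85 (0.51 to 1.35), and Pfkfb4 of 0.70 (0.35 to 1.28) and 1.06 (0.64 to 1.67), although both are known HIF targets in other settings. Hk2 was near the threshold at 1.54 and 1.76. These are the 3 genes named above as high in control cluster 6.

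**Figure D4:**
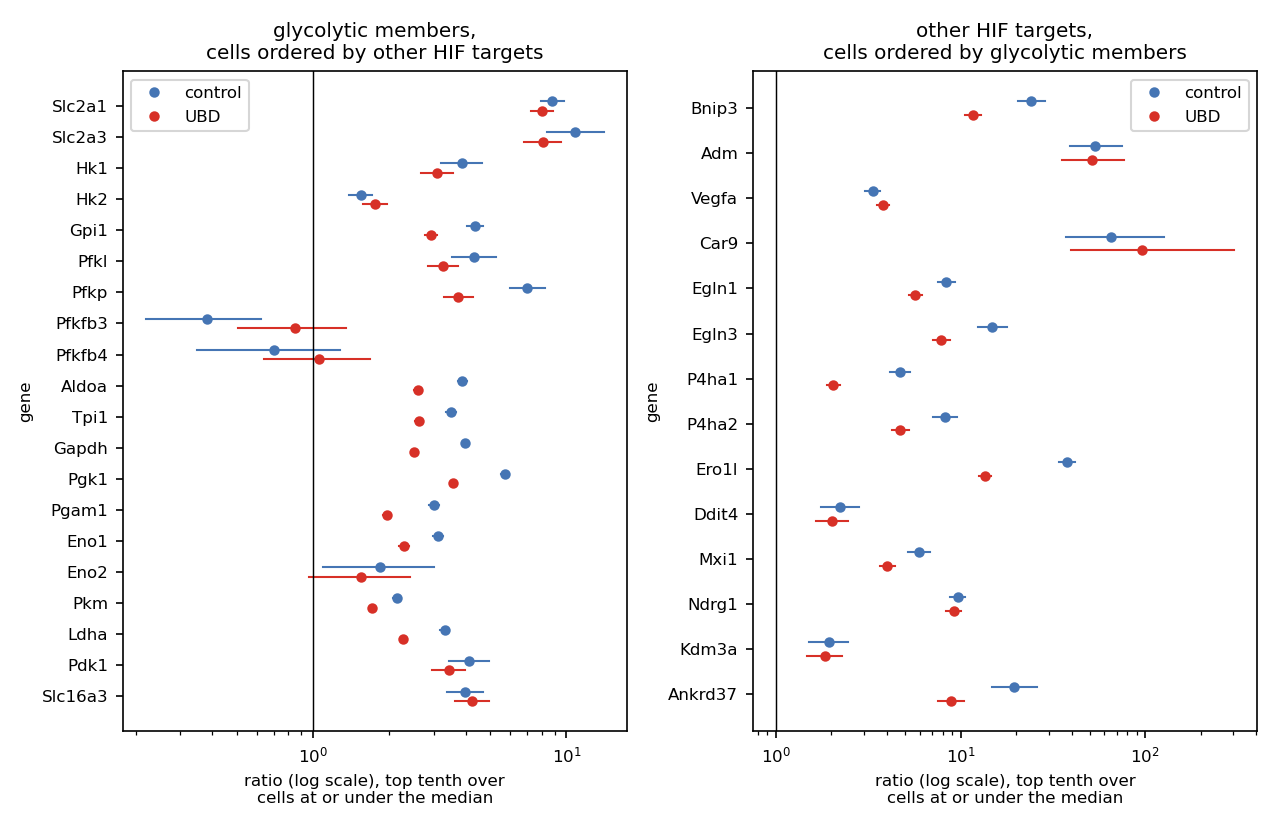
Ratio (log scale) between tumour cells at the top of an ordering, about 1 in 10, and those at or under its median, with 95% counting intervals, for glycolytic members with cells ordered by the other HIF targets (left) and the reverse (right). All glycolytic members except Pfkfb3 and Pfkfb4 lie at or above 1.5 in both libraries, and all 14 other HIF targets lie above it, up to 65.6 and 96.2 for Car9.

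In the reverse ordering, by glycolytic UMIs, all 14 other HIF targets were at least 1.5-fold higher in the 416 control and 790 UBD cells at the top, where 10.4% and 6.24% of all genes were and 36% and 21.5% were lower. Car9 had ratios of 65.6 (37.3 to 126) and 96.2 (39.9 to 303), Adm 53.8 and 51.2, Ero1l 37.6 and 13.6, Bnip3 24.1 and 11.7, and Ankrd37 19.5 and 8.85. Ddit4 had ratios of 2.22 and 2.02 and Kdm3a of 1.93 and 1.84. Ddit4 and Kdm3a therefore tracked glycolysis least, and Car9 and Adm most. Across cells the 2 sums had a Pearson correlation of 0.70 over 4126 control and 0.65 over 7565 UBD cells, which share a library, a depth and 1 total.

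Outside the members, of 16 measured further HIF targets 11 were at least 1.5-fold higher in cells high for the other HIF targets in each library. Fam162a, a mitochondrial protein gene, had ratios of 6.27 and 3.69, the collagen cross-linking oxidase Lox 11.1 and 4.05, the mitophagy receptor Bnip3l 6.26 and 2.54, and the lipid droplet gene Hilpda 3.45 and 4.03. Of the further glycolytic isoforms and branch genes, 5 of 11 were higher and 3 lower in control cells (median ratio 1.38), and 4 of 12 higher and 4 lower in UBD cells (median ratio 0.858). Those higher in both were Aldoc, Pgm2, Gys1 and Gbe1. Gys1, which builds glycogen, had ratios of 7.38 and 3.50, and Gbe1, its branching enzyme, 5.02 and 3.6. Of 7 pentose phosphate genes and 11 nuclear oxidative phosphorylation genes none was 1.5-fold higher in either library, and among the latter Sdhb had 0.55 and 0.60. Of the HIF regulators, Vhl had ratios of 3.11 and 2.21, whereas Hif1a mRNA had 1.39 and 1.41. Of 9 stress-response genes, 8 were higher in control and 3 in UBD cells.

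Depth and RNA quality moved along this range in the control library. Cells high for the other HIF targets had a median of 31655 UMIs before thinning and 2.02% mitochondrial UMIs, against 23439 and 4.09% in the low cells. In the UBD library the medians were close, 18010 and 17213 UMIs and 3.12% and 3.23%. Of the 9 dissociation-stress genes, high control cells had 8 lower by 1.5-fold or more, and high UBD cells had 1 lower and 1 higher. In the ordering by glycolytic UMIs the shift was larger. The control medians were 32363 and 17596 UMIs and 1.88% and 5.17% mitochondrial UMIs in the high and low cells, Gm42418 stood at 1927 and 6041 CPM, and 9 of 9 dissociation-stress genes were lower. In UBD cells the medians were 18961 and 15774 UMIs and 2.71% and 3.47%, Gm42418 stood at 1131 and 1467 CPM, and 3 of 9 were lower. The part of these values in either ordering was not tested.

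Between the libraries, the further HIF targets in tumour cells were at least 1.5-fold lower for 8 of 19 and higher for 2, where 20.6% and 8.96% of all genes were. Lox was at 20.6 and 3.43 CPM, 6.0-fold lower, Angptl4, a lipase inhibitor, at 92.8 and 19.9 CPM, 4.67-fold lower, and Hilpda at 144 and 70.9 CPM, 2.03-fold lower. Loxl2, a relative of Lox, was 1.83-fold lower and Car12, another carbonic anhydrase, 1.97-fold. The hormone gene Stc1 went the other way, at 4.49 and 21.4 CPM, a ratio of 4.76. Of 8 measured HIF regulators, 2 were lower, near the share of all genes: Cited2, an inhibitor of HIF, at 106 and 63.4 CPM, and the scarce Epas1 (HIF-2 alpha), with 56 and 10 UMIs in all. Of 14 further isoforms and branch genes 2 were lower, Hk3 and Gbe1 (1.78-fold), and of 9 pyruvate dehydrogenase and carrier genes 1, Pdk4 (1.88-fold). None of 7 pentose phosphate and 11 oxidative phosphorylation genes passed 1.5-fold either way.

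Macrophages differed between the libraries in the other direction for glycolysis. Of 20 glycolytic members 6 were at least 1.5-fold higher in the UBD library (Pfkl, Pgk1, Pgam1, Eno1, Ldha and Pdk1) and 2 were lower (Pfkfb3 and Pfkfb4), where 10.2% and 21.5% of 11455 genes were. Eno1 was at 290 CPM (280 to 301) and 487 CPM (474 to 500), a ratio of 1.68, and Pgk1 at 426 and 708 CPM, a ratio of 1.66. Ldha was at 578 and 926 CPM. Slc2a1 was at 64.9 and 92.3 CPM, a ratio of 1.42, and Hk2, with 82.3 and 78.2 CPM, showed little difference. Pfkfb3 was at 51.5 and 28.4 CPM. The median log2 ratio was 0.46, beside -0.10 over all genes.

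Of the other HIF targets in macrophages 3 were higher and 1, Kdm3a, lower. Ankrd37 was at 11.4 and 23.0 CPM, a ratio of 2.01, and Bnip3 at 82.5 and 135 CPM, a ratio of 1.63. Adm rested on few molecules, 44 and 103 UMIs, and 1.28% and 3.53% of cells had one. Mxi1, at 113 and 98.0 CPM, and Ndrg1, at 84.5 and 72.6 CPM, were slightly lower, and Vegfa was at 170 and 159 CPM. The median log2 ratio was 0.19.

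Most macrophage clusters too lay almost wholly in 1 library, and no cluster had 80 cells of both, so no ratio within a cluster was computed. The control clusters differed among themselves more than the 2 libraries did, with a glycolytic sum of 9610 CPM in cluster 2, 6121 in cluster 3 and 4042 in cluster 4. Summed over the class, glycolytic members reached 6658 CPM (control) and 9458 CPM (UBD). In UBD tissue, clusters 0 and 1, which held most cells, stood at 9029 and 10298 CPM. Their 41 and 72 control cells stood at 6694 and 7611 CPM. The 18, 28 and 22 UBD cells of clusters 2, 3 and 4 stood at 14057, 9526 and 7985 CPM. Cluster 6 stood at 2503 CPM in 34 control and 5664 CPM in 99 UBD cells. Only cluster 5 was lower in the UBD library, at 7327 CPM in 131 control and 6195 CPM in 8 UBD cells. Without cluster 5, led by collagen genes, 7 glycolytic members were higher and 2 lower, and 5 other HIF targets were higher and 1 lower. The share of all genes was not counted without that cluster. Fibroblast markers summed to 181 and 64.5 CPM in macrophages, and Gm42418 stood at 11020 and 2824 CPM. Monocyte markers (Ly6c2, Plac8 and Chil3) summed to 1539 and 142 CPM, all 3 above 0 in each library. All 9 dissociation-stress genes were at least 1.5-fold lower in UBD macrophages, with a median log2 ratio of -1.10. The part of these genes in the result was not tested.

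T cells showed few differences. Of 18 measured glycolytic members 1, Pfkfb3, was at least 1.5-fold lower and none higher, where 13.5% and 9.45% of 8347 genes were. Pgam1 was at 224 and 284 CPM, Eno1 at 345 and 425 CPM and Aldoa at 628 and 758 CPM, ratios of 1.27, 1.23 and 1.21. Gapdh stood at 2863 and 2822 CPM. Of 12 measured other HIF targets 2 were lower. Ndrg1 was at 127 and 25.4 CPM, but 163 of its 226 control UMIs lay in 5 cells, and Egln3 was at 26.4 and 8.95 CPM, with 31 of 47 control UMIs in 5 cells. These 2 differences rest on a handful of control cells. Cdkn2a, the tumour marker, was counted at 90.5 and 112 CPM in T cells and monocyte markers at 2884 and 1112 CPM.

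In osteoclast-like cells, multinucleate-type resorbing cells of the macrophage lineage, only 86 control cells were available, so values are given with no count of calls. Vegfa was at 59.7 CPM (48.2 to 73.0) in control and 106 CPM (98.9 to 113) in UBD cells, and Bnip3 at 38.1 and 57.0 CPM. Hk2 was at 95.9 CPM (81.2 to 112) and 49.1 CPM (44.6 to 54.0), and Pfkp at 66.0 and 44.5 CPM. Slc2a3 had 0 control UMIs, so its level was at most 1.91 CPM there, and 1.02 CPM in the UBD library. Other members differed less: Aldoa was at 1130 and 1344 CPM, Ldha at 835 and 766 CPM.

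Neutrophils, with 18 cells in the UBD library, are given by level only. Slc16a3 stood at 595 CPM in the control library (128 UMIs) and 314 CPM in the UBD library (8 UMIs), Slc2a3 at 242 and 354 CPM (52 and 9 UMIs) and Slc2a1 at 139 and 196 CPM (30 and 5 UMIs). Gapdh was at 2285 and 1375 CPM, from 492 and 35 UMIs. Adm, Car9 and Eno2 had 0 UMIs in each, a limit of 13.9 CPM for control cells but of 118 CPM for the few UBD cells. Of 5 neutrophil markers (S100a9, Csf3r, Cxcr2, Retnlg and Ly6g), 4 were above 0 in the UBD cells and Ly6g was at 0, under the same limit of 118 CPM. The 5 markers summed to 54888 CPM in control and 65024 CPM in UBD cells of this class.

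**Figure D5:**
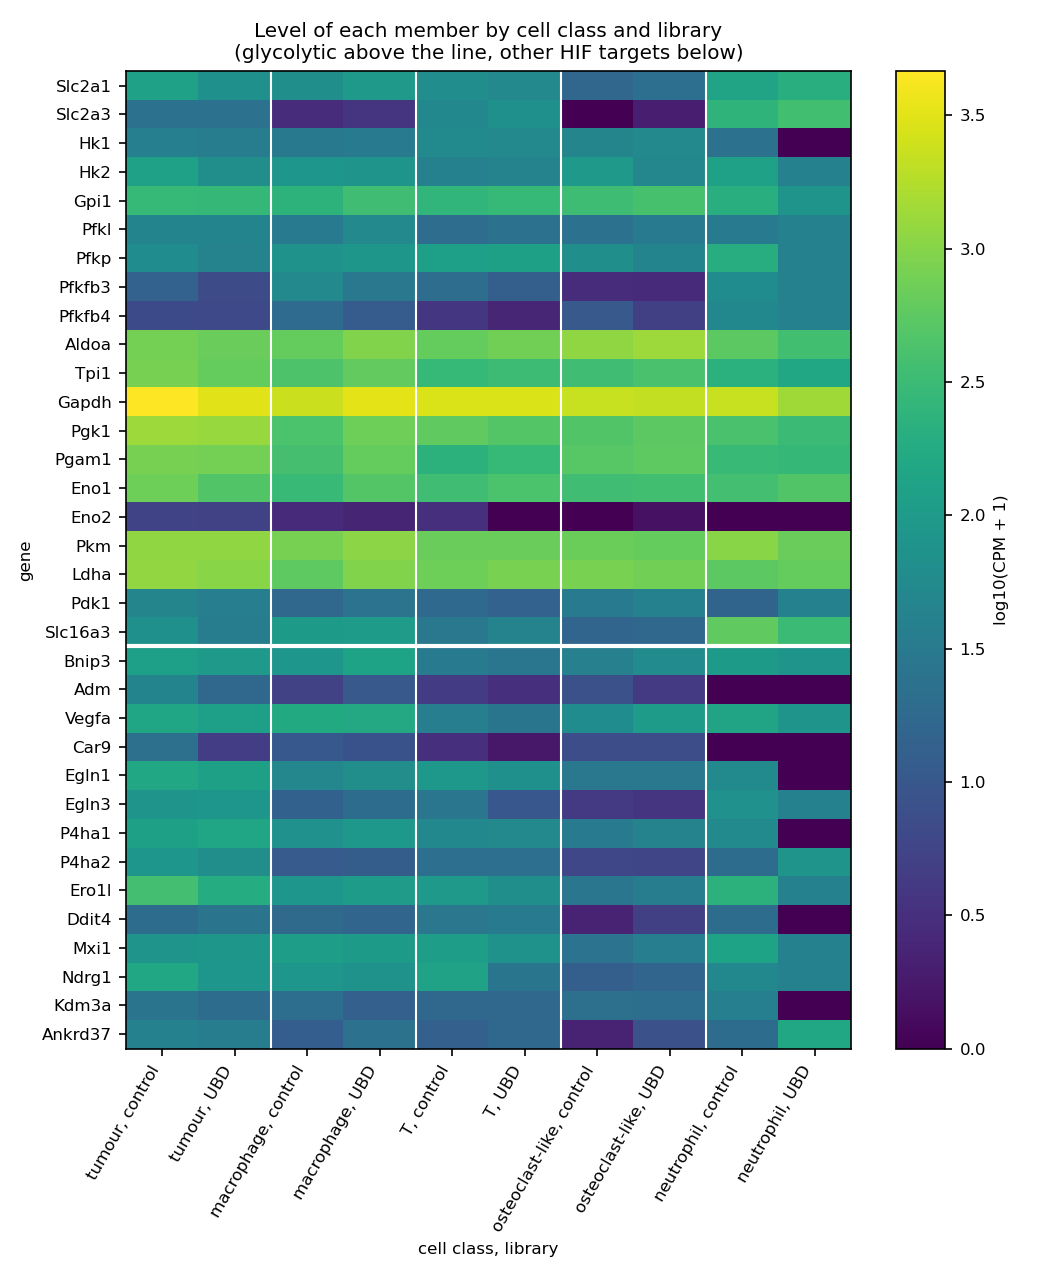
Level of each member as log10(CPM + 1), by colour, in the 5 cell classes of both libraries; rows above the white line are glycolytic members and rows below it other HIF targets. Gapdh is bright throughout, Slc2a3 and Slc16a3 are brightest in neutrophils, and Slc2a3, Pfkfb3 and Egln3 are dark in osteoclast-like cells.

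Between classes of the same library, 7 of 14 other HIF targets (Adm, Egln1, Egln3, P4ha1, P4ha2, Ero1l and Ankrd37) were at least 1.5-fold higher in tumour cells than in macrophages in both libraries, and none was lower by as much. Of the glycolytic members 4 were higher (Slc2a3, Pgk1, Eno2 and Pdk1) and 2 lower (Pfkfb3 and Pfkfb4). Over 14001 genes 39.1% were higher and 19.3% lower, so the 4 of 20 lie below the share of all genes and the 7 of 14 a little above it. Slc2a3 and Slc16a3 were highest in neutrophils in both libraries, though from 9 and 8 UMIs in UBD cells. Pfkfb4 was highest in control neutrophils, at 51.1 CPM (25.5 to 91.4) from 11 UMIs. The control neutrophil intervals of Slc2a1 (94.0 to 199 CPM) and Pfkfb3 (32.2 to 103 CPM) held the level of the next class, and UBD neutrophils held 5 UMIs of Slc2a1 and 1 each of Pfkfb3 and Pfkfb4, too few to rank. Among the other 4 classes, Gpi1 and Aldoa were highest in osteoclast-like cells in both libraries. Hk2, Pfkl, Gapdh and Eno1 were highest in tumour cells in control and in macrophages in UBD tissue, where tumour and macrophage levels of Gapdh and Eno1 lay close (tumour over macrophage 0.97 and 0.94).

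The shares of paralogs differed between classes. Slc2a3 made up 2.86% (1.75 to 4.38) and 2.79% (1.88 to 3.99) of the UMIs of Slc2a1 and Slc2a3 in macrophages of the control and UBD libraries, 45.0% and 56.2% in T cells, and 63.4% and 64.3% in neutrophils, the last from 14 UMIs. Hk2 made up 73.6% and 72.1% of the hexokinase pair in macrophages and 43.1% and 45.2% in T cells. Pfkp made up 85.4% and 84.0% of Pfkl and Pfkp in T cells and 69.1% and 62.3% in macrophages. The Hk2 share was thus lower, and the Slc2a3 and Pfkp shares higher, in T cells than in macrophages of either library. P4ha2 made up 40.8% and 30.4% of its pair in tumour cells and 12.8% and 11.1% in macrophages. Here the tumour share was lower in the UBD library, while those of Slc2a3 and Egln3 were higher.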

How the data were processed

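UMI counts per gene and barcode are as the authors deposited them, 1 sparse matrix of 31053 genes per library. Cell Ranger, STAR and the mm10 build come from the submitters' processing notes, and version 3.1.0 of the software is recorded per the file headers. How cell barcodes were called, and with which annotation, is not stated in these sources. Of 31053 gene IDs 30934 were found in GENCODE vM21. Aldoa has 2 IDs, and the one with nearly all UMIs was used.

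A barcode needed 200 genes and 500 UMIs or more and no more than 20% mitochondrial UMIs, and doublets marked by Scrublet (scanpy 1.11.5) were removed: 530 control and 562 UBD cells. This left 13823 of 14890 control and 13057 of 14158 UBD barcodes, from 173973178 and 204267192 UMIs. A cell meeting 1 marker rule took that class. UMIs were summed per class and library and scaled to CPM, with exact Poisson intervals, and ratios have exact conditional binomial intervals, all at 95%. Shares have Clopper-Pearson intervals. A count of 0 is given a limit of 3 counts. A gene was measured with at least 20 UMIs over both libraries. P-values and standard errors were not computed, since there is 1 library per group. The ratio code was tested on simulated data. Clusters within a class (Leiden, resolution 0.5) used 2000 variable genes without members and pathway genes.

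Full values were given for up to 4 members at each end of the ratios per class (at least 20 CPM in 1 library, at least 50 UMIs, interval without 1), and for pathway genes by the largest ratio. Other members are given by role. The members, gene lists and gates were chosen with earlier results of these data known. Alternatives changed the cell filters, gates, doublet removal, scaling, thinning depth and clusters.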

Additional observations from a re-analysis of the deposited data

Results flagged for a closer look

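Eno1 had a log2 ratio, UBD over control, of 0.745 in macrophages and of -0.628 in tumour cells, past 1.5-fold in opposite directions in the 2 classes. Adm had 1.17 in macrophages and -1.44 in tumour cells in the same way. The difference between the classes was not tested, since each class has 1 library per group. The macrophage value of Adm rests on 44 control and 103 UBD UMIs.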

How the results depend on the processing

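Of 101 alternatives 97 left the result within its interval or, for counts, within 1.5 times. For a median this interval comes from the ranked ratios of the members, which are not replicates, and not from counting error. It is wide, -0.96 to 0.12 for the other HIF targets in tumour cells, so a change of sign can fall inside it. The median log2 ratio of glycolytic members in tumour cells, -0.21, was -0.033 within cluster 1 and -0.077 within cluster 5. The number of members with a wide spread across tumour cells, 11, was 6 at 3000 UMIs and 22 at 10000 UMIs. The median of the other HIF targets in tumour cells was 0.07 within cluster 1, of opposite sign to the -0.35 of all tumour cells, and between -0.37 and 0.07 over all its alternatives. In macrophages the glycolytic median stayed between 0.42 and 0.56. The settings without clusters 5 and 6 of tumour cells, and without cluster 5 of macrophages, were chosen after seeing the data. No paired analysis was possible because each group has 1 library. Leaving out a replicate was not possible for the same reason, and values within macrophage clusters were not run, since none had 80 cells in both libraries. Depth limits neutrophils (18 UBD cells) and the control osteoclast-like cells (86) most.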
